A study of Homo sapiens with 8 samples.

Results

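miR-105 and miR-767 are microRNAs of the X chromosome that are normally made in the germline and are switched on in some tumours. Each hairpin precursor is cut into a 5p and a 3p arm, and all human array entries for any arm of either miRNA were taken: miR-105-5p, miR-105-3p, miR-767-5p and miR-767-3p, 4 of the 2549 human miRNAs on the array. The rule that chose them used no measured value, but it was set with earlier results of these data known. Mature miRNAs were measured on 8 one-colour arrays of INA-6, an interleukin-6 dependent human multiple myeloma (MM) cell line that was grown with this cytokine. 4 arrays held cells given DMSO and 4 held cells given 1 μM of UNC1999, an inhibitor of the histone methyltransferase EZH2, for 120 hours. DMSO is the control in the sample titles and the design text, which were followed here, but the treatment note names UNC2400, an inactive relative of UNC1999, at the same concentration. All cells came from a single line, so the spread between the 4 biological replicates of a group does not cover differences between cell lines or patients.

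EZH2 is the enzyme of Polycomb repressive complex 2, which places the silencing mark H3K27me3 on chromatin. The miR-105 and miR-767 genes lie within GABRA3 on the X chromosome, close to MAGE-A genes, which belong to the cancer-germline genes that are silenced by DNA methylation in most adult tissues and are reactivated in some cancers. miR-767-5p is known for repressing the DNA demethylating enzymes TET1 and TET3, and miR-105-5p for repressing the tight junction protein ZO-1 when it is released by breast cancer cells. No DNA methylation or H3K27me3 values were analysed here.

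The mature sequences show which entries a reader could confuse and which miRNAs could share targets. They are printed 5′ to 3′ with the seed, bases 2 to 8, in capitals, and come from RefSeq on GRCh38.p14.
hsa-miR-105-5p: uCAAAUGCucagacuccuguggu
hsa-miR-105-3p: aCGGAUGUuugagcaugugcua
hsa-miR-767-5p: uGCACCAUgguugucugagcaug
hsa-miR-767-3p: uCUGCUCAuaccccaugguuucu
No pair of the 4 arms had the same seed. Among the 2370 human mature names in the RefSeq table, 1 other miRNA had the seed of miR-105-5p, and none had the seed of the other 3 arms. The seed of miR-767-5p, however, stands 1 base further on, at bases 3 to 9, in all 3 members of the miR-29 family, which also target TET enzymes. These relatives are printed with their own seeds in capitals.
hsa-miR-7853-5p: uCAAAUGCagauccugacuuc
hsa-miR-29a-3p: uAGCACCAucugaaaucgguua
hsa-miR-29b-3p: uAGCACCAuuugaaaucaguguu
hsa-miR-29c-3p: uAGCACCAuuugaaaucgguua

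3 genes encode the 4 arms, all on the minus strand. MIR105-1 lies at chrX:152392219-152392299, MIR767 at chrX:152393421-152393529 and MIR105-2 at chrX:152394412-152394492. In the RefSeq gene order they follow each other inside GABRA3, with MAGEA10 as the coding gene before it and GABRQ and MAGEA3 after it. The exons and introns of GABRA3 were not used here. The hairpins are shown because they decide what an array probe can tell apart, with the mature arms in capitals.
MIR105-1: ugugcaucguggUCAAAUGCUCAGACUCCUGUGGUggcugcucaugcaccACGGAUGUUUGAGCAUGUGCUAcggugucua
MIR105-2: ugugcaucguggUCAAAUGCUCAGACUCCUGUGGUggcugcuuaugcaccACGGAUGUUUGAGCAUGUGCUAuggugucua
MIR767: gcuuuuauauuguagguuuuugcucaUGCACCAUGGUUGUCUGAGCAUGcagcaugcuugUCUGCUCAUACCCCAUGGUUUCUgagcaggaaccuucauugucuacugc
MIR105-1 and MIR105-2 differed at 2 of 81 positions, C43U and C73U, counted from 1 at the 5′ end of MIR105-1 with its base first. Both positions lie outside the mature arms, so a probe for either arm reads the copies together. A stretch that runs from the loop into the 3p arm of MIR105-1 also returns in MIR767, where it covers the 5p arm. Over these 29 bases, 26 were identical (89.7%), and capitals mark the bases that differ.
MIR105-1: ugcucaugcaccaCggAuguUugagcaug
MIR767: ugcucaugcaccaUggUuguCugagcaug
The same window of MIR105-2 had 25 identical bases (86.2%). miR-105-3p and miR-767-5p share 8 bases in a row and differ in their seeds. The shared bases start at base 10 of miR-105-3p, in its middle, and at base 16 of miR-767-5p, at its 3′ end.

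The UNC1999 arrays were brighter than the DMSO arrays. The 75th percentile of the 346 miRNAs detected on all 8 arrays, which served to scale each array, was 419 ± 119 scanner units after DMSO and 664.2 ± 88.4 after UNC1999 (SD, n = 4; exact permutation, two-sided, p = 0.0571). The spike-in controls gave 6184 ± 512.7 and 5915 ± 267 (p = 0.4 in the same exact test). Between 369 and 500 human miRNAs were detected per array, and DMSO replicates 2 and 3 had the fewest, 369 and 370. All 8 arrays were on 1 slide. Blood lineage miRNAs were present: miR-142-3p, miR-142-5p, miR-150-5p and miR-181a-5p were detected on 8 of 8 arrays and miR-155-5p on 2. None of 10 miRNAs that mark liver, nerve, muscle, epithelium, endothelium, red cells or stroma was detected on any array.

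Only 1 of the 4 arms passed detection in INA-6. miR-105-5p was detected on all 8 arrays, while miR-105-3p, miR-767-5p and miR-767-3p were detected on 0 of 8, before and after UNC1999. Over the whole array, 1980 of 2549 human miRNAs (77.7%) were detected on no array and 346 (13.6%) on all 8, so 3 undetected arms of 4 is near the share of the array as a whole. By mean scaled log2 signal, miR-105-5p was the dimmest of these 346, and on 1 array it was the lowest detected miRNA. The scanner software calls a miRNA detected where at least 1 of its probes has a signal over 3 times its error, a rule that held for 20392 of 20392 pairs of a miRNA and an array. A miRNA that is not detected may still be present below the array's sensitivity. Each arm was read by 4 probes with 5 spots a probe on every array.

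Detection of miR-105-5p rested on a single probe, A_25_P00012043. Its mean spot intensity, with the background subtracted and before scaling, was 17.7, 14.9, 15.6 and 19.3 scanner units in DMSO replicates 1 to 4. It was 18.9, 27.7, 15.4 and 19.9 in UNC1999 replicates 1 to 4. The groups overlapped, with UNC1999 replicate 2 above all other arrays and UNC1999 replicate 3 among the lowest. The means were 16.9 ± 2.02 and 20.5 ± 5.17 (SD, n = 4), a difference within the spread between replicates (exact permutation, two-sided, p = 0.229). After scaling the means ran the other way, 21.6 ± 4.13 and 16.2 ± 4.36 scaled units, a log2 difference of -0.44 (p = 0.143 in the exact test). The signal of the probe was 3.43 to 5.26 times its error, past the limit of 3 on every array.

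The other 3 probes of miR-105-5p carried no detected signal. Their mean intensities lay between -6.25 and 5.35, their signal was at most 1.19 times its error, and 0 of 3 passed on any array. For comparison, the 95th percentile of the 1000 negative control spots was 7.11 to 8.59 per array. Of 40 spots of the detected probe, 39 were above that percentile of their own array, against 4 of the 120 spots of the other 3. The scanner marked 16 of the 40 as well above background. Detection through 1 probe alone was seen for 20 of the 346 miRNAs detected on all arrays (5.78%), and for 3 of the 16 of them that have 4 probes (18.8%). Whether the signal of this probe came from miR-105-5p alone was not tested.

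**Figure D1:**
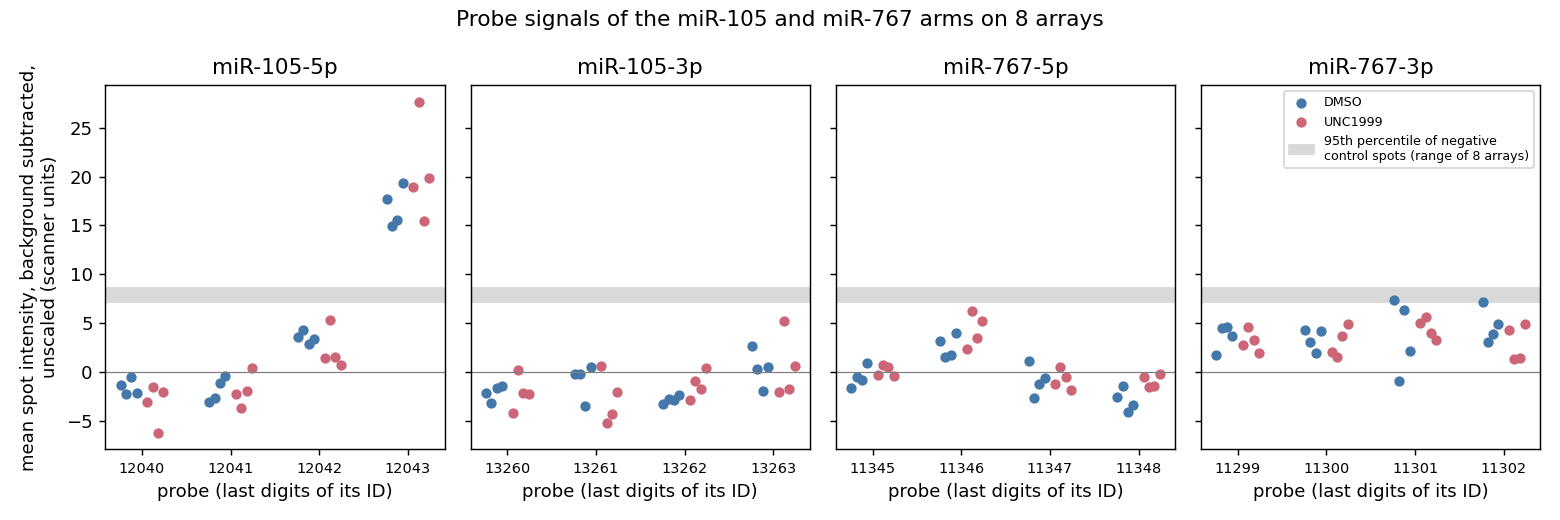
Mean spot intensity of each probe after background subtraction and before scaling (scanner units, linear axis) for the 4 arms, with 1 point for each of the 4 DMSO and 4 UNC1999 arrays. The grey band is the range over the arrays of the 95th percentile of negative control spots. Probe A_25_P00012043 of miR-105-5p lies above the band on all 8 arrays, between 14.9 and 27.7, and every other probe mean lies within or below it.

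Across the array, most of the tested miRNAs differed between the UNC1999 and DMSO arrays, with scaling or without it. The test took in the 456 human miRNAs that every array of the DMSO group, of the UNC1999 group or of both detected. Of these, 322 (70.6%) passed limma at an adjusted p of at most 0.05 with a fold change of at least 1.2, 158 of them lower (34.6%) and 164 higher (36%). This balance moved with the scaling. Without scaling 4 were lower and 234 higher, with spike-in scaling 7 and 274, with the 75th percentile taken over every human miRNA 88 and 192, and with normexp background correction 230 and 54. Against this background, 0 of the 4 arms were called, and miR-105-5p was the only one that could be tested.

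Before scaling, the summed signal of the 4 probes of miR-105-5p was 16.8, 14.2, 16.8 and 20.1 in DMSO replicates 1 to 4. It was 14.99, 27.8, 8.75 and 19.0 in UNC1999 replicates 1 to 4. The UNC1999 arrays held both the highest and the lowest value, and the DMSO arrays lay between them. The means were 16.9 ± 2.43 and 17.6 ± 7.98 (SD, n = 4), a difference of 0.676 scanner units (exact permutation, two-sided, p = 0.886).

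After scaling, the log2 signal was 4.20, 4.39, 4.87 and 4.22 in DMSO replicates 1 to 4. In UNC1999 replicates 1 to 4 it was 3.50, 4.35, 3.17 and 4.20. UNC1999 replicates 1 and 3 were below every DMSO array, and replicates 2 and 4 lay among them. UNC1999 replicate 3 was at the floor of 8.98 scaled units, to which its own value of 6.21 had been raised. On that array the detected probe alone read 10.96 scaled units, above the floor. The undetected probes A_25_P00012040, A_25_P00012041 and A_25_P00012042 entered the sum there at -4.44, -1.38 and 1.07. The groups overlapped, whereas those of 298 of the 456 tested miRNAs (65.4%) did not.

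The mean log2 signal was 4.42 ± 0.31 after DMSO and 3.80 ± 0.56 after UNC1999 (SD, n = 4). The log2 fold change was -0.62 (SE 0.26, 95% interval -1.19 to -0.045) and missed the threshold, with an adjusted p of 0.0519 in limma. The exact two-sided permutation test of the same values gave p = 0.143, and 0.0286 is the smallest p that 4 arrays against 4 can give. The median log2 fold change of all tested miRNAs was 0.01. The direction held only with scaling to the miRNAs themselves, since the log2 fold change was 0.01 without scaling and 0.06 with spike-in scaling, where the median of all tested miRNAs stood at 0.67 and 0.72. Relative to the median of all tested miRNAs, miR-105-5p stood at -0.63 as reported, -0.185 with normexp, -0.115 with the mean of log2 probe values and -2.33 in the deposited processed values.

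**Figure D2:**
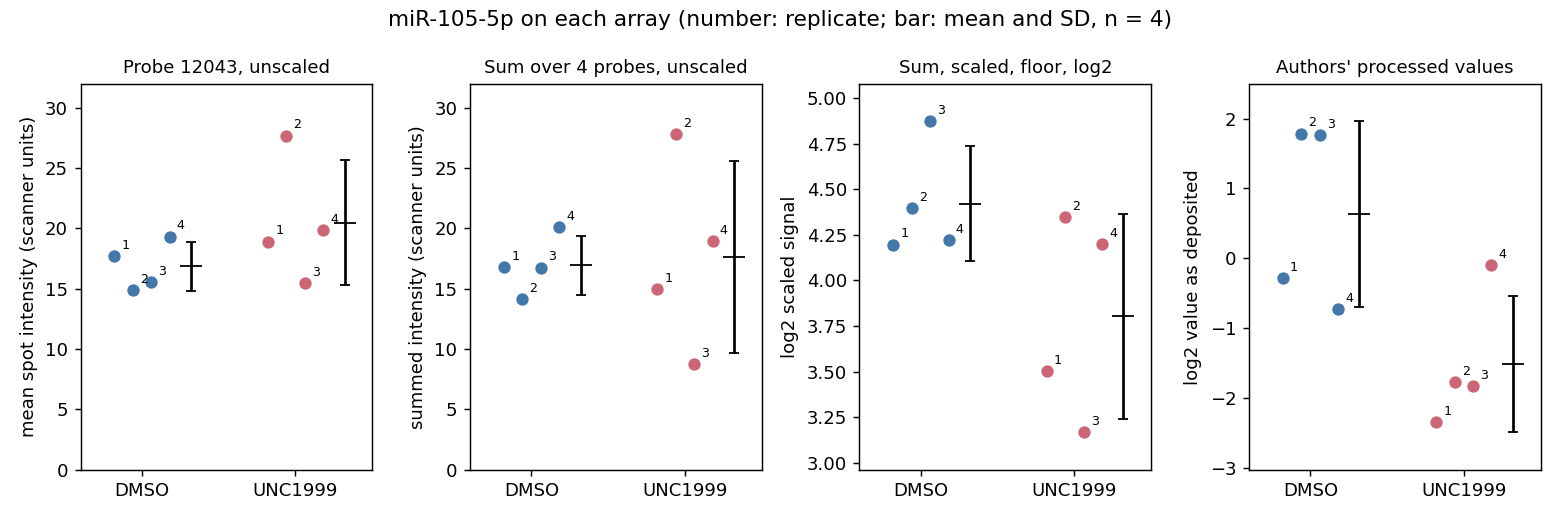
miR-105-5p on each array by 4 measures: mean spot intensity of probe A_25_P00012043 and the sum over 4 probes, both unscaled in scanner units, the scaled log2 signal, and the deposited processed log2 value. Points are arrays numbered by replicate and bars show the mean and SD of 4 arrays. The unscaled sums average 16.9 and 17.6, whereas the scaled log2 means are 4.42 for DMSO and 3.80 for UNC1999, and the groups overlap in all 4 panels.

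The call depended on which arrays and which processing were used. The 8 arrays fell on opposite sides of the second principal component of the tested miRNAs, DMSO replicates 1 and 4 with UNC1999 replicates 1 and 3, and DMSO replicates 2 and 3 with UNC1999 replicates 2 and 4. This split was read from the data and no label names it. miR-105-5p averaged 4.21 after DMSO and 3.33 after UNC1999 on the former side, a log2 difference of -0.87. On the latter side it averaged 4.63 and 4.27, a difference of -0.36. Leaving out DMSO replicate 1, DMSO replicate 4, UNC1999 replicate 2 or UNC1999 replicate 4 also brought the call, with log2 fold changes of -0.68, -0.67, -0.78 and -0.78 (adjusted p = 0.0424, 0.0457, 0.0227 and 0.0402 in limma), and the other 4 arrays did not. With the sides as a block, limma called miR-105-5p lower at an adjusted p of 0.00307, a value that is too small because the sides were drawn from the same values that were tested. With the row of the array on the slide as a block, the log2 fold change was -0.64 at an adjusted p of 0.0957 in limma. DMSO replicate 3 was the only DMSO array in row 2 and UNC1999 replicate 4 the only UNC1999 array in row 1.

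The deposited processed values, on a log2 scale after quantile normalization, listed miR-105-5p and none of the other 3 arms. They were -0.28, 1.79, 1.77 and -0.73 in DMSO replicates 1 to 4. They were -2.35, -1.78, -1.83 and -0.10 in UNC1999 replicates 1 to 4. UNC1999 replicate 4 lay above DMSO replicates 1 and 4, so the groups overlapped here too. The means were 0.63 ± 1.33 and -1.51 ± 0.98 (SD, n = 4; exact permutation, two-sided, p = 0.0857), and limma on this table called miR-105-5p lower, with a log2 fold change of -2.15 at an adjusted p of 0.0447. The lowest value in that table, given to miRNAs that were not detected, was -3.32. The highest values of miR-105-5p, on DMSO replicates 2 and 3, came from the arrays with the fewest detected human miRNAs, 369 and 370. Its lowest, on UNC1999 replicate 1, came from the array with the most, 500. The scanner software's unscaled total for miR-105-5p averaged 1.19 after DMSO and 1.62 after UNC1999 (exact permutation, two-sided, p = 0.229). Whether the number of detected miRNAs shaped the deposited values was not tested.

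**Figure D3:**
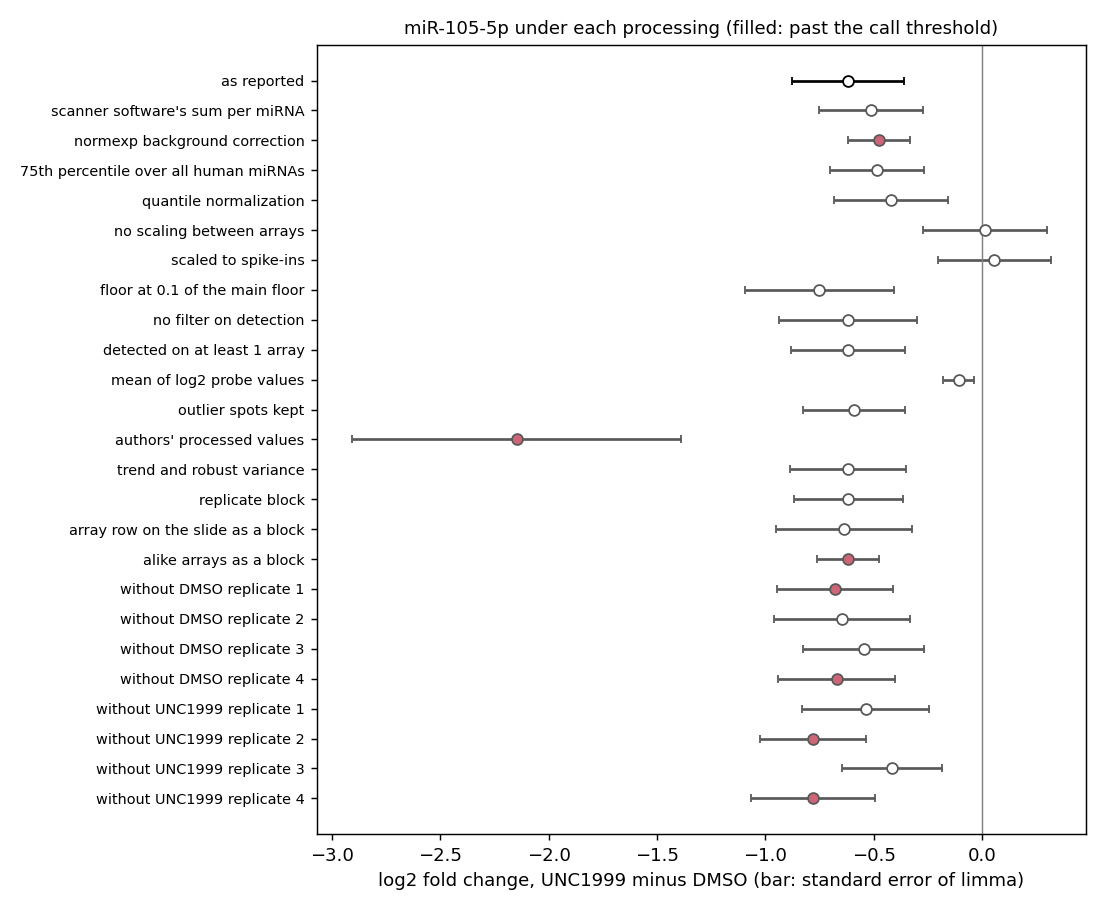
Log2 fold change of miR-105-5p, UNC1999 minus DMSO, as reported and under 24 alternatives, with bars for the standard error in limma. Filled points passed an adjusted p of 0.05 and a fold change of 1.2, which 7 alternatives did, and 22 of the 24 lie below 0, between -2.15 and 0.06 overall.

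miR-105-3p, the other arm of the same hairpins, gave no signal above background. Its 4 probes summed to -3.14, -5.89, -10.1 and -2.89 unscaled scanner units in DMSO replicates 1 to 4. The sums were -8.59, -0.779, -10.1 and -3.32 in UNC1999 replicates 1 to 4. All 8 values were below 0, that is, under the background that had been subtracted. The signal of its probes was at most 1.14 times its error, and 0 of its 160 spots were marked well above background. The difference of the scaled sums was 3.75 (exact permutation, two-sided, p = 0.4) and turned to -0.196 without scaling and -0.285 with spike-in scaling, and no fold change was computed.

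miR-767-5p, the arm that targets TET1 and TET3, was also below detection. Its unscaled sums were -0.107, -3.11, -4.41 and 0.779 in DMSO replicates 1 to 4. They were 0.264, 5.83, 1.93 and 2.70 in UNC1999 replicates 1 to 4. Only DMSO replicate 4 was above the lowest UNC1999 array. The means were -1.71 ± 2.45 and 2.68 ± 2.33 (SD, n = 4; exact permutation, two-sided, p = 0.0571), a difference that did not pass the test. The difference of the scaled sums was 5.04 at the same exact p. Leaving out 1 array gave p = 0.0571 to 0.171 in the exact test for 7 of the 8 arrays, and 0.0286 without DMSO replicate 4, the array that made the groups overlap. Its probes reached 1.38 times their error, and 9 of 160 spots (5.63%) were above the 95th percentile of negative controls. The 1 spot marked well above background, on UNC1999 replicate 3, was flagged as an outlier by the scanner and left out of the mean.

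miR-767-3p came closest to detection among these 3 arms, with a ratio of signal to error of up to 1.96, on DMSO replicate 1, against the limit of 3. Its unscaled sums were 20.4, 9.70, 16.7 and 14.8 in DMSO replicates 1 to 4. They were 14.1, 13.003, 12.3 and 15.01 in UNC1999 replicates 1 to 4. The UNC1999 arrays lay inside the range of the DMSO arrays. These sums were above those of the detected miR-105-5p on DMSO replicate 1 and UNC1999 replicate 3, and below them on the other arrays. The means were 15.4 ± 4.46 and 13.6 ± 1.205 (SD, n = 4; exact permutation, two-sided, p = 0.514). After scaling they were 19.9 ± 7.30 and 10.8 ± 2.59, a difference of -9.05 (p = 0.0857 in the exact test). 21 of its 160 spots (13.1%) were above the 95th percentile of negative controls, spread over 3 of its 4 probes, and 0 were marked well above background.

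The other miRNAs of the region and of the germline are read against the 77.7% of all human miRNAs that were detected on no array. Of 12 arms from other miRNA genes of Xq28, 8 (66.7%) were never detected, among them all 4 arms of miR-224 and miR-452. 3 passed the detection filter, with a median log2 fold change of 0.33. miR-718 rose by 0.71 on the log2 scale (adjusted p = 0.0169 in limma), also without scaling and with spike-ins, but stood at 0.0080 with normexp background correction. miR-664b-3p fell by 0.63 (adjusted p = 5.3e-04 in limma) as scaled, while it stood at 0.07 without scaling and 0.13 with spike-ins. miR-664b-5p was detected on 2 DMSO and 4 UNC1999 arrays. It thus passed the filter only through the UNC1999 group, which by itself favours a higher call. It stood at 0.33 as scaled (adjusted p = 0.159 in limma), 1.02 without scaling and 1.09 with spike-ins. The call was higher without scaling and with spike-ins, and lower with normexp, at -0.35. Of the 456 tested miRNAs, 234 were called higher without scaling (median log2 fold change 0.67) and 274 with spike-ins (median 0.72).

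The miR-506 to miR-514 and miR-888 to miR-892 clusters, known from testis and epididymis, were not detected on any array for 24 of 30 arms (80%). 4 passed the filter, all 5p arms of miR-513 and miR-514b, with a median log2 fold change of -0.45. 3 of these 4 fell as scaled, where 34.6% of all tested miRNAs were called lower: miR-513a-5p by 0.46, miR-513b-5p by 0.44 and miR-514b-5p by 0.60 on the log2 scale (adjusted p = 0.0134, 0.00577 and 0.00271 in limma), calls that none of them kept with the 75th percentile taken over every human miRNA. miR-514b-5p was detected on 3 DMSO and 4 UNC1999 arrays. miR-513c-5p stood at -0.27 (adjusted p = 0.127 in limma). All 4 lay above 0 without scaling and with spike-ins, between 0.10 and 0.49, and none passed there. These values were below the medians of all tested miRNAs, 0.67 without scaling and 0.72 with spike-ins.

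**Figure D4:**
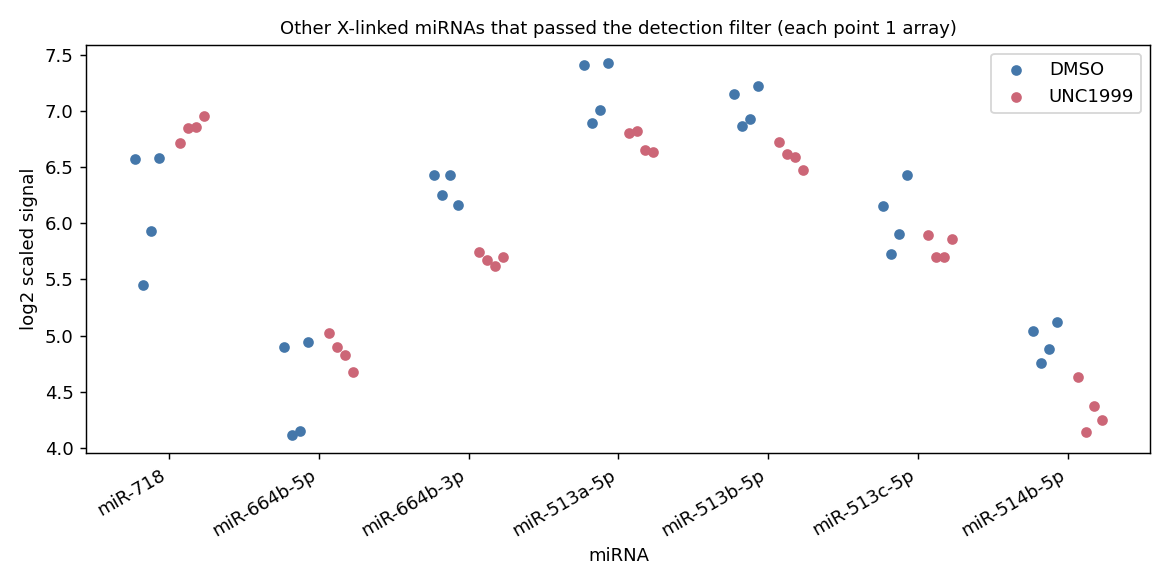
Scaled log2 signal of the 7 other X-linked miRNAs that passed the detection filter, 3 from Xq28 and 4 of the miR-513 and miR-514 family, with 1 point for each of the 4 DMSO and 4 UNC1999 arrays. miR-718 lies higher after UNC1999 on every array and miR-664b-3p, miR-513a-5p, miR-513b-5p and miR-514b-5p lower on every array, on this scaling, on which the groups of 65.4% of all tested miRNAs did not overlap.

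Of 18 arms of the germ cell tumour and stem cell clusters miR-302, miR-367 and miR-371 to miR-373, 16 (88.9%) were never detected. miR-371a-5p and miR-371b-5p were detected on 8 of 8 arrays and stood at 0.09 and 0.30 on the log2 scale (adjusted p = 0.440 and 0.112 in limma). Both were called higher without scaling and with spike-ins, where 234 and 274 of the 456 tested miRNAs were called higher.

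Of the seed relatives, miR-7853-5p, which has the seed of miR-105-5p, was detected on 0 of 8 arrays. The miR-29 arms, which carry the miR-767-5p seed shifted by 1 base, were detected on 8 of 8. miR-29a-3p fell by 0.99, miR-29b-3p by 1.02 and miR-29c-3p by 0.76 on the log2 scale (adjusted p = 0.00109, 0.00160 and 0.00308 in limma), 3 of 3 called lower beside 34.6% of all tested miRNAs. Without scaling and with spike-ins all 3 also lay below 0, between -0.32 and -0.0050, and none passed. The medians of all tested miRNAs there were 0.67 and 0.72.

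Over the 8 arrays, the 3 of 455 other tested miRNAs whose scaled log2 signal was most like that of miR-105-5p were miR-619-5p (Pearson r = 0.964, Spearman rho = 0.810), miR-3151-3p (r = 0.958, rho = 0.929) and miR-4465 (r = 0.948, rho = 0.929). miR-3151-3p was detected on 6 of the 8 arrays, and miR-619-5p and miR-4465 on all 8. The log2 fold changes of the 3 were -0.34, -0.72 and -0.19, and only miR-3151-3p was called, at an adjusted p of 0.0313 in limma. That call was lost with the 75th percentile taken over every human miRNA (adjusted p = 0.0508 in limma) and with quantile normalization (0.143). Without scaling the 3 values were 0.35, -0.02 and 0.51, and with spike-ins 0.41, 0.04 and 0.57. With spike-ins miR-4465 was called higher (adjusted p = 0.0236 in limma), among 274 of the 456 tested miRNAs called higher there. The points share the arrays and the scaling factor of each array. The unscaled sum of miR-105-5p had r = 0.0991 and rho = 0.0476 with the 75th percentile of the 8 arrays, by which the scaling divides it. Its scaled log2 signal had r = -0.765 and rho = -0.667 with the log2 of that percentile, so it was lower on brighter arrays.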

How the data were processed

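The authors labelled total RNA with Cy3, and per the file headers the arrays were read with Agilent Feature Extraction 10.7.3.1. The deposited spot intensity is background-subtracted and not normalized between arrays. The authors also deposited log2 values made by quantile normalization, used as an alternative. Intensities were averaged per probe without outlier spots, summed per miRNA and divided by the array's 75th percentile over miRNAs detected on all 8 arrays. Values under 8.98 were raised to it, which understates the change of a dim miRNA. Of 53144 spots per array, 1392 to 2292 were outliers. limma 3.58.1 in R 4.3.3 was run on 456 miRNAs with Benjamini-Hochberg adjustment, and the script was tested on simulated data. Arms that failed the detection filter got values and an exact permutation test, and probes a test only above background. No pair of arrays had an equal value among the 456 miRNAs. p-values cover only the spread between these replicates, and the number of arrays limits precision. The members and lists were chosen with earlier results of these data known. Named miRNAs are the 4 arms, the 3 miRNAs most like a detected arm, and the listed miRNAs that passed the filter. miR-155-5p, miR-224, miR-452 and miR-7853-5p, named beside their lists, did not pass it and were named after their detection calls were seen. 2248 of 2549 array names were in the RefSeq table. Alternatives covered signal, background, scaling, floor, filter, probes, blocks and left-out arrays.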

Additional observations from a re-analysis of the deposited data

Results flagged for a closer look

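In UNC1999 replicate 2, the mean intensity of probe A_25_P00012042 of miR-105-5p, which passed detection on no array, was 5.35 scanner units against 0.749 to 1.504 in the other 3 UNC1999 arrays. It lay far from the others by Dixon's test, 1 of 48 groups tested, where chance gives about 2.4. The same array had the highest value of the detected probe, and without it miR-105-5p had a log2 fold change of -0.78 at an adjusted p of 0.0227 in limma.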

How the results depend on the processing

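miR-105-5p stayed below 0 under 22 of 24 alternatives and uncalled under 17. It reached 0.0129 without scaling and 0.0574 with spike-ins. It was called with normexp (-0.48, adjusted p = 0.0138 in limma), the deposited processed values (-2.15) and the sides of the second principal component as a block (-0.62), drawn from the tested values. Normexp adds an offset of 50 to each probe, which the scaling then divides by a larger factor on brighter arrays. Leaving out 1 array gave -0.78 to -0.41 (adjusted p = 0.0227 to 0.135 in limma), with calls without DMSO replicate 1 (-0.68), DMSO replicate 4 (-0.67), UNC1999 replicate 2 or UNC1999 replicate 4 (both -0.78). The cause of these shifts was not tested. The mean of log2 probe values gave -0.11. For the undetected arms, the difference of scaled sums turned with normexp to -108.5 for miR-105-3p and -108.1 for miR-767-5p, and for miR-105-3p to -0.196 without scaling and -0.285 with spike-ins. Leaving out 1 array gave 1.09 to 5.50 for miR-105-3p, 3.94 to 6.19 for miR-767-5p and -11.6 to -6.98 for miR-767-3p, which stayed below 0 throughout. Alternatives on a log scale, blocks and the filter were not run for these 3 arms. The count of 322 called miRNAs fell to 195 with no filter, where 2549 were tested, and was 296 to 326 with 1 array left out.

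With the replicate number as a block, miR-105-5p kept a log2 fold change of -0.62 (adjusted p = 0.0520 in limma) and 308 miRNAs were called. Same-numbered arrays did not deviate together (r = 0.18, 0.27, -0.42 and -0.39), so the numbers were not taken as pairs.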
